A study of Homo sapiens with 3 samples.

Results

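The genes of the human mitochondrial genome were followed in DU145, a cell line from a metastatic prostate carcinoma. Members were the rows of the count tables whose gene name began with MT-, which gave 37 of 58735 listed genes: 13 mRNAs, 2 rRNAs and 22 tRNAs. No other listed gene lay on the mitochondrial chromosome. RNA-seq was run on 3 libraries, each made from total RNA of DU145 cells and, by the study's methods, from mRNA enriched on oligo(dT) beads, which favours RNA with a poly(A) tail. The labels give DMEM as the medium and the study's methods EMEM, both with FBS. The control is labelled as the knockdown control. Its count column is headed with the name of another gene, and it was taken as the control from its label. The methods name the empty pLKO.1 vector as the control of the knockdown lines but call the sequenced control only DU145. Whether the control library carried the vector is therefore not settled. The other libraries are labelled PD-L1 knockdown 1 and PD-L1 knockdown 2 and carried a lentiviral pLKO.1 construct with an shRNA against PD-L1. The lines with an shRNA were infected with lentivirus, then selected and kept in puromycin as stable lines. The comparison asks what follows loss of PD-L1, a membrane protein that restrains T cells, inside castration-resistant prostate cancer cells.

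The mitochondrial genome is a small circle inherited apart from the nucleus, and each cell carries many copies of it. Both strands are transcribed into long precursors that run through many genes, and the tRNAs that lie between the mRNAs and rRNAs are cut out, which frees the RNAs on either side. The mRNAs encode subunits of the respiratory chain and of ATP synthase, and the rRNAs and tRNAs serve the ribosomes that translate them inside the organelle. Because neighbouring genes are copied on the same precursor, the members are not independent of each other.

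Total counts were 14733088 in the control, against 14738298 in the library labelled knockdown 1 and 15786457 in the library labelled knockdown 2, and 3 counts corresponded to between 0.190 and 0.204 CPM (counts scaled to the library total). CD274, the gene of PD-L1, had 204, 213 and 224 counts in that order, so its mRNA was not lower in the libraries labelled as knockdowns (log2 fold change 0.05, SE 0.20, adjusted p = 0.947, edgeR quasi-likelihood test). The study reports that its stable lines were checked for PD-L1 protein by western blot, which these RNA counts do not measure. The libraries are therefore named by their labels throughout. The epithelial genes KRT8 (1091 to 1215 CPM), KRT18 (519 to 588 CPM), EPCAM (51.2 to 57.5 CPM) and CDH1 (141 to 186 CPM) and the mesenchymal gene VIM (469 to 532 CPM) were present in every library. KLK3 and TMPRSS2, which mark androgen-responsive prostate cells, had 0 counts in all 3. Thyroid genes were looked for because the series text also names BCPAP, a thyroid cancer line: TG had 3 to 15 counts, TSHR 2 to 3 and PAX8 13 to 29. Of the blood genes, PTPRC had 0 to 3 counts, and CD3E and HBB had 0. The study's methods name the sequenced knockdown cells PD-L1sh1/2, which reads as a different shRNA in each, although they list a single shRNA sequence. Nothing in the sources says that the libraries labelled as knockdowns came from separate cultures of the same construct. Spread between shRNAs and spread between cultures therefore cannot be told apart. The libraries labelled as knockdowns differed from each other by more than sampling noise (chi-square per degree of freedom 5.57 over 18413 genes). The control has no replicate, and only 1 residual degree of freedom, from these 2 libraries, was left in each gene. The fit therefore replaced each gene's own spread by a dispersion shared over genes of like level, and the p-values measure a difference against that shared spread.

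Sequences of the annotated transcripts (GRCh38, GENCODE v29) show why some members cannot be counted apart. Of the 36 pairs of neighbouring genes, 25 had no base between them, 5 of these 25 overlapped, and the widest gap was 31 bases. MT-ATP8 and MT-ATP6 share 46 bases, read in different frames, at chrM:8527-8572 on the plus strand, where capitals mark the start codon of MT-ATP6 and the stop codon of MT-ATP8.
MT-ATP8/MT-ATP6 overlap: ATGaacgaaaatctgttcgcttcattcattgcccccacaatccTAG
MT-ND4L and MT-ND4 share 7 bases, in capitals in this stretch of the plus strand, chrM:10750-10776.
MT-ND4L/MT-ND4 overlap: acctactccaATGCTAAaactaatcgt
A read in either overlap belongs to both genes, and how such reads were counted is not given in the sources used here.

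The gene ends are shown because many of these mRNAs have no complete stop codon in the genome. Of the 13 mRNAs, 6 lacked one: 5 ended in a single T and 1, MT-ND1, in TA. The stop codon of these mRNAs is completed by the poly(A) tail. The last 12 bases of MT-ND1 (chrM:4251-4262, plus strand), MT-ND3 (chrM:10393-10404, plus strand), MT-CO1 (chrM:7434-7445, plus strand) and MT-ND6 (chrM:14149-14160, minus strand) follow, with the full or partial stop codon in capitals.
MT-ND1: ccctcaaaccTA
MT-ND3: actgaaccgaaT
MT-CO1: ataaaatctAGA
MT-ND6: cgggggaatAGG
MT-ND6 is the mRNA of the light-strand transcript, which also carries 8 of the 22 tRNAs; the other 28 genes lie on the heavy-strand transcript. Whether the counting used strand is not given in the sources used here, so RNA of MT-ND6 or of a light-strand tRNA cannot be told apart from RNA copied from the opposite strand at the same place.

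Mitochondrial genome genes took a smaller share of the counts in both libraries labelled as knockdowns. They held 6.30% of all counts in the control (exact binomial 95% interval 6.29% to 6.31%), against 5.68% (5.67% to 5.70%) in the library labelled knockdown 1 and 5.17% (5.16% to 5.18%) in the library labelled knockdown 2. The highest value was the control's, and the intervals did not overlap; here and throughout, such intervals cover counting error only. As a ratio to the control, the share was 0.902 (0.899 to 0.905) in the library labelled knockdown 1. It was 0.820 (0.818 to 0.823) in the library labelled knockdown 2. The control lay 0.618 percentage points above the library labelled knockdown 1 and 1.13 points above the library labelled knockdown 2, and those libraries differed from each other by 0.514 points (mean 5.43%, SD 0.364 points, n = 2). With 1 control library the share could not be tested over libraries. In bulk RNA, fewer cells of a kind and less RNA per cell cannot be told apart, and a lower share of counts can likewise not be told apart from more RNA of other genes.

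Other measures of the libraries also differed, not all of them in the order of the share, and their part in it was not tested. The number of genes with at least 1 count was 24735 in the control, against 25152 in the library labelled knockdown 1 and 25617 in the library labelled knockdown 2, the reverse of the order of the share. That number can also rise with depth, and total counts were 14733088, 14738298 and 15786457 in the same order. MALAT1, a nuclear long non-coding RNA, was at 322, 241 and 277 CPM, so it was highest in the control and lowest in the library labelled knockdown 1. NEAT1 was at 234, 235 and 258 CPM. Replication-dependent histone genes, whose mRNAs lack a poly(A) tail, held 0.0439%, 0.0443% and 0.0457% of the counts.

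The lower share was seen in each class of member. The 13 mRNAs held 5.41% of all counts in the control, against 4.85% in the library labelled knockdown 1 and 4.36% in the library labelled knockdown 2. The 2 rRNAs held 0.867%, 0.811% and 0.785% in the same order, ratios of 0.935 and 0.906 to the control. The 22 tRNAs held 0.0247%, 0.0242% and 0.0196%. For the tRNAs the ratio in the library labelled knockdown 1 was 0.979 with an interval of 0.935 to 1.03, and no difference could be detected at that depth, while in the library labelled knockdown 2 it was 0.794 (0.756 to 0.833). Within the mitochondrial counts, mRNAs made up 85.8%, 85.3% and 84.4%, and rRNAs 13.8%, 14.3% and 15.2%.

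Gene by gene, 14 of the 15 mRNAs and rRNAs were below the control in both libraries labelled as knockdowns, and none passed the test. The exception was MT-ND3, a subunit of complex I. Over these 15 genes the median log2 fold change was -0.23, beside 0.00 over all 19849 tested genes, with values from -0.35 (MT-ND6) to 0.04 (MT-ND3). Taken singly, the library labelled knockdown 1 gave a median of -0.16 and the library labelled knockdown 2 a median of -0.29. Of all tested genes, 36.8% were below the control in both libraries and 37.7% above it in both, and among the 3801 genes with at least 1000 counts on average, where nearly all of these members lie, 40.4% were below it in both. In those well-counted genes the median was 0.01, the 25th percentile -0.12 and the 5th percentile -0.27.

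With edgeR's quasi-likelihood test, adjusted by Benjamini-Hochberg over every gene tested, 0 of the 35 members tested passed an adjusted p of 0.05 in either direction. Over all tested genes 0.106% passed as lower and 0.247% as higher. At an unadjusted p under 0.05, 10 members were lower, 9 of them mRNAs and the other MT-TL1, and 0 were higher, beside 4.92% of all tested genes lower and 6.82% higher. Of the 3801 genes with at least 1000 counts on average, 298 were lower and 402 higher at that level. DESeq2 also called 0 members after adjustment and had 5 lower at an unadjusted p under 0.05. The share of all genes at that level in DESeq2 is not given here. MT-TW and MT-TA had fewer than 10 counts over the 3 libraries and were not tested. All of these 10 but MT-ND6 are copied on the heavy-strand transcript, so they do not amount to 10 separate observations.

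**Figure D1:**
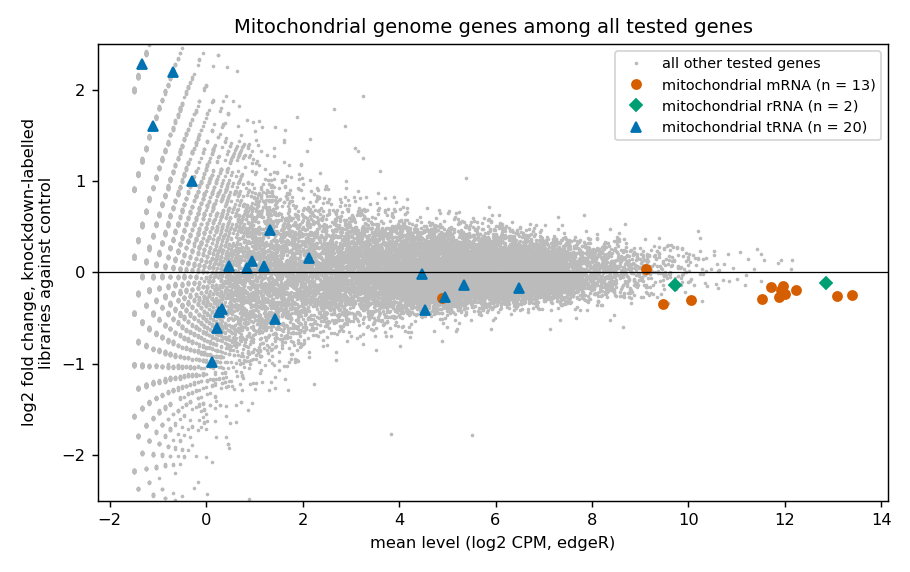
Log2 fold change from the control to the libraries labelled PD-L1 knockdown (vertical axis) against mean level in log2 CPM (horizontal axis, edgeR), with 1 point for each tested gene and no error bars; some genes other than the members lie beyond the vertical range drawn. The 13 mitochondrial mRNAs and 2 rRNAs sit, all but MT-ATP8, among the most highly counted genes and, all but MT-ND3, below 0, while the 20 tested tRNAs spread to both sides at lower levels.

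Both mitochondrial rRNAs, the RNA of the small (MT-RNR1) and large (MT-RNR2) ribosomal subunit, differed from each other in which library was lowest. In the library labelled knockdown 2 both had higher ratios to the control than 12 of the 13 mRNAs, whereas in the library labelled knockdown 1 this held for MT-RNR2 and MT-RNR1 was below 10 of the 13. MT-RNR1 (chrM:648-1601) had 13273 counts in the control, against 11298 in the library labelled knockdown 1 and 13678 in the library labelled knockdown 2. Its CPM ratio to the control was 0.851 (0.830 to 0.873) and then 0.962 (0.939 to 0.985), so the library labelled knockdown 1 was the lowest (log2 fold change -0.14, SE 0.11, adjusted p = 0.641). MT-RNR2 (chrM:1671-3229) had 114465, 108221 and 110267 counts, and its ratios of 0.945 and 0.899 put the library labelled knockdown 2 lowest (log2 fold change -0.11, SE 0.09, adjusted p = 0.668). Although both rRNAs lie on the same precursor, the odds of MT-RNR1 against MT-RNR2 relative to the control were 0.900 (0.877 to 0.924) in the library labelled knockdown 1 and 1.07 (1.04 to 1.10) in the library labelled knockdown 2. The libraries labelled as knockdowns therefore lay on opposite sides of the control in this ratio.

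Complex I, which passes electrons from NADH to ubiquinone, has 7 subunits encoded in the mitochondrial genome. Together they held 2.36% of counts in the control, against 2.09% in the library labelled knockdown 1 and 1.88% in the library labelled knockdown 2, ratios of 0.884 (0.880 to 0.889) and 0.797 (0.793 to 0.801). All of them except MT-ND3 were lower than the control in both.

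MT-ND1 (chrM:3307-4262) had 53421 counts in the control, against 50079 in the library labelled knockdown 1 and 48274 in the library labelled knockdown 2 (log2 fold change -0.16, SE 0.10, adjusted p = 0.523). MT-ND2 (chrM:4470-5511) had 63164, 55157 and 52771 counts (-0.27, SE 0.10, adjusted p = 0.212). MT-ND4 (chrM:10760-12137) had 143582, 126547 and 121591 counts (-0.25, SE 0.09, adjusted p = 0.225). In each of these 3 subunits, all of the membrane arm of the complex, the control was the highest library and the library labelled knockdown 2 the lowest in CPM. MT-ND5 (chrM:12337-14148), another membrane-arm subunit, had 49563, 41776 and 42122 counts (-0.29, SE 0.10, adjusted p = 0.192). MT-ND4L (chrM:10470-10766), a small hydrophobic subunit, had 18062, 15934 and 14116 counts (-0.31, SE 0.10, adjusted p = 0.181). Its ratio of 0.729 (0.713 to 0.746) in the library labelled knockdown 2 was the lowest of the 15 genes in either library.

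MT-ND6 (chrM:14149-14673, minus strand), the light-strand mRNA, had the largest fold change of the 15 genes. It had 12318 counts in the control, against 9983 in the library labelled knockdown 1 and 9988 in the library labelled knockdown 2. The CPM ratios were 0.810 (0.789 to 0.832) and 0.757 (0.737 to 0.777), and both libraries lay well below the control (log2 fold change -0.35, SE 0.11, unadjusted p = 0.00101, adjusted p = 0.115, edgeR). Against the other 12 mRNAs its odds relative to the control were 0.903 (0.879 to 0.927) and 0.937 (0.912 to 0.962). Light-strand transcripts as a whole, 9 genes, had ratios of 0.845 and 0.764, beside 0.903 and 0.821 for the 28 genes of the heavy strand. The 8 light-strand tRNAs alone had ratios of 0.989 (0.939 to 1.04) and 0.792 (0.750 to 0.835).

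MT-ND3 (chrM:10059-10404) was the member of this class that did not move with the rest. It had 8026 counts in the control, against 8527 in the library labelled knockdown 1 and 8503 in the library labelled knockdown 2. Its CPM was 6.2% above the control in the first (ratio 1.06, 1.03 to 1.10) and 1.13% below it in the second (ratio 0.989, 0.959 to 1.02), so the control lay between the others (log2 fold change 0.04, SE 0.11, adjusted p = 0.926). Among the mRNA counts, its odds against the other 12 mRNAs lay above the control's in both libraries, at 1.19 (1.15 to 1.22) and 1.23 (1.19 to 1.27), the furthest from 1 of any mRNA. MT-ND3 lies between MT-CO3 and MT-ND4L on the heavy strand, flanked by MT-TG and MT-TR with no base between. Its neighbours differed from it: MT-CO3 had ratios of 0.912 and 0.834, and MT-ND4L of 0.882 and 0.729.

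**Figure D2:**
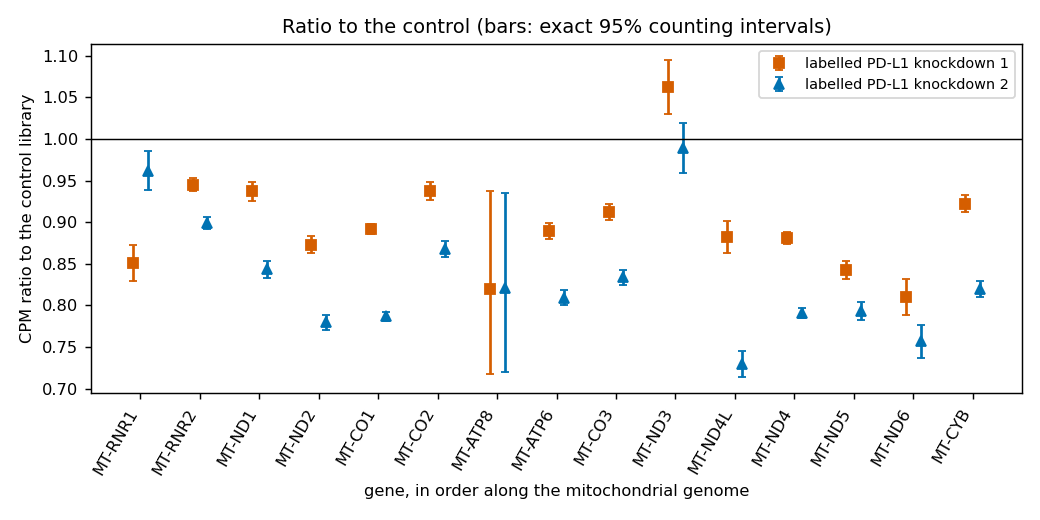
CPM ratio to the control library (vertical axis) for the 13 mRNAs and 2 rRNAs in their order along the mitochondrial genome (horizontal axis), with squares for the library labelled PD-L1 knockdown 1, triangles for the library labelled PD-L1 knockdown 2 and bars for exact 95% counting intervals. In the first library 14 intervals lie below 1 and that of MT-ND3 above it, and in the second 14 lie below 1 and that of MT-ND3 spans it. The intervals cover counting error only, and the share of other well-counted genes with intervals below 1 is not given.

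MT-CYB (chrM:14747-15887), cytochrome b, is the mitochondrially encoded subunit of complex III, which hands electrons from ubiquinol to cytochrome c. It had 62337 counts in the control, against 57513 in the library labelled knockdown 1 and 54773 in the library labelled knockdown 2 (log2 fold change -0.19, SE 0.10, adjusted p = 0.414). Its ratios of 0.922 (0.912 to 0.933) and 0.820 (0.811 to 0.830) were close to those of all 37 genes summed.

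The 3 mitochondrial subunits of complex IV, cytochrome c oxidase, form its catalytic core. MT-CO1 (chrM:5904-7445), the subunit that holds the site of oxygen reduction, was the most highly counted member, with 178606 counts in the control, against 159293 in the library labelled knockdown 1 and 150623 in the library labelled knockdown 2 (log2 fold change -0.25, SE 0.09, adjusted p = 0.232). MT-CO2 (chrM:7586-8269), which takes electrons from cytochrome c, had 62725, 58822 and 58326 counts (-0.14, SE 0.10, adjusted p = 0.587). MT-CO3 (chrM:9207-9990) had 77311, 70553 and 69053 counts (-0.19, SE 0.10, adjusted p = 0.417). The order of the libraries was the same for all 3, with the control highest in CPM. Together they had ratios of 0.906 (0.901 to 0.910) and 0.814 (0.810 to 0.818). Among the mRNA counts MT-CO2 took a larger share than in the control, with odds of 1.05 (1.04 to 1.06) and 1.08 (1.07 to 1.10) against the other 12.

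MT-ATP6 and MT-ATP8 encode subunits of the membrane part of ATP synthase and are carried on the same mature mRNA. MT-ATP6 (chrM:8527-9207) had 67460 counts in the control, against 60023 in the library labelled knockdown 1 and 58501 in the library labelled knockdown 2 (log2 fold change -0.23, SE 0.10, adjusted p = 0.310). MT-ATP8 (chrM:8366-8572) had 496, 407 and 436 counts (-0.28, SE 0.16, adjusted p = 0.502). Its ratios of 0.820 (0.718 to 0.937) and 0.820 (0.720 to 0.935) did not set the libraries labelled as knockdowns apart, and its counts were far fewer than those of any other mRNA. Relative to MT-ATP6, its odds were 0.922 (0.809 to 1.05) and 1.01 (0.891 to 1.15), so no difference between these co-transcribed genes was detectable at this depth. Of the 15 mRNAs and rRNAs, 13 were lower in the library labelled knockdown 2 than in the library labelled knockdown 1 with counting intervals below 1, MT-RNR1 was higher, and MT-ATP8 could not be separated. These libraries differed by more than sampling noise over 18413 genes (chi-square per degree of freedom 5.57). The share of other well-counted genes with such intervals is not given, so this number is not particular to the members.

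Levels can be compared between genes only per length, for which the deposited FPKM (fragments scaled to gene length and library total) was used. In every library the 10 genes of highest FPKM were all mitochondrial, and members took 15 of the top 20. By counts, 8 of the top 10 genes in the control were members, 7 in the library labelled knockdown 1 and 6 in the library labelled knockdown 2. The 15 mRNAs and rRNAs fell into levels whose ranges over the 3 libraries did not overlap. The highest held MT-CO1 at 6182 to 7801 FPKM with MT-ND4, MT-CO3, MT-ATP6 and MT-CO2, the last at 5397 to 6176 FPKM; within it each gene's range overlapped the next. MT-RNR2 followed at 4477 to 4945 FPKM.

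Below MT-RNR2 came MT-ND2, MT-ND4L, MT-ND1 and MT-CYB, the last at 3038 to 3679 FPKM, which overlapped one after the other. MT-ND5, MT-ND3 and MT-ND6 came next, with MT-ND6 at 1204 to 1580 FPKM. MT-RNR1 was at 801 to 937 FPKM and MT-ATP8 at 133 to 161 FPKM. Genes that share a precursor or even a mature mRNA thus differed widely in level per length. The FPKM of MT-RNR2 was 5.28 times that of MT-RNR1 in the control, 5.86 times in the library labelled knockdown 1 and 4.93 times in the library labelled knockdown 2. That of MT-ATP6 was 41.3, 44.8 and 40.8 times that of MT-ATP8. That of MT-ND4 was 1.71, 1.71 and 1.86 times that of MT-ND4L, with which it shares its mature mRNA. How far length, library preparation or the treatment of overlapping reads enters these ratios was not tested.

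**Figure D3:**
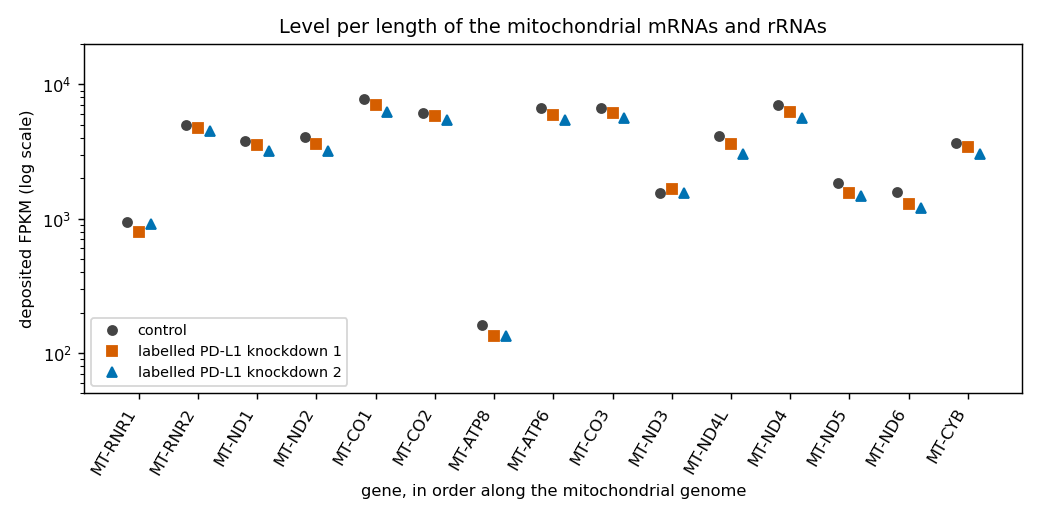
Deposited FPKM on a log scale (vertical axis) of the 13 mRNAs and 2 rRNAs in their order along the mitochondrial genome (horizontal axis), with 1 point per library and no error bars. MT-CO1 is highest at 6182 to 7801 FPKM and MT-ATP8 lowest at 133 to 161 FPKM.

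The 22 tRNAs were thinly counted, and few of them carried nearly all of the signal. Only 5 had at least 250 counts in every library, and these held 91.1%, 89.9% and 89.7% of the tRNA counts in the control, the library labelled knockdown 1 and the library labelled knockdown 2. Of these, 4 are copied from the light strand. The sequences of the pair with most counts, MT-TC for cysteine (chrM:5761-5826, minus strand) and MT-TP for proline (chrM:15956-16023, minus strand), are shown because both are light-strand genes. At 66 and 68 bases they are also shorter than most fragments of an RNA-seq library, and whether their reads came from free tRNA or from longer precursors was not tested.
MT-TC: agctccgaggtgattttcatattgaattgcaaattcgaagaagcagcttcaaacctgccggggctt
MT-TP: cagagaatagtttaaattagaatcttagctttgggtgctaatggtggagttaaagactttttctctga

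MT-TC had 1436 counts in the control, against 1403 in the library labelled knockdown 1 and 1230 in the library labelled knockdown 2 (log2 fold change -0.17, SE 0.13, adjusted p = 0.638). MT-TP had 634, 598 and 589 counts, MT-TN, for asparagine, 512, 505 and 366, and MT-TY, for tyrosine, 329, 386 and 282. In the library labelled knockdown 2 all of these light-strand tRNAs were below the control with intervals below 1, while in the library labelled knockdown 1 MT-TY was above it at a ratio of 1.17 (1.01 to 1.36) and the others were not separable from it. MT-TL1, a leucine tRNA of the heavy strand that lies directly after MT-RNR2, had 409, 319 and 314 counts. Its ratios were 0.780 (0.671 to 0.905) and 0.716 (0.617 to 0.832), and both libraries were below the control (log2 fold change -0.42, SE 0.17, unadjusted p = 0.0164, adjusted p = 0.308, edgeR).

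The other 17 tRNAs had at most 78 counts in any library. MT-TV, for valine, had 58, 78 and 55 counts, MT-TG, for glycine, 47, 37 and 31, and MT-TH, for histidine, 28, 30 and 50. The libraries took a different order in each of these. MT-TF, for phenylalanine, was named after its values were seen: it had 2, 6 and 14 counts, a ratio of 6.53 (1.50 to 59.2) in the library labelled knockdown 2 and a log2 fold change of 2.20 (SE 1.22, adjusted p = 0.476) that rests on 2 counts in the control. MT-TW had 1, 0 and 1 counts and MT-TA 2, 4 and 1. Over the 20 tRNAs tested the median log2 fold change was 0.02, with 10 below and 10 above 0. Of these 8 were lower and 6 higher than the control in both libraries. The median was 0.10 in the library labelled knockdown 1 and -0.30 in the library labelled knockdown 2, beside -0.16 and -0.30 for the 13 mRNAs. The 5 tRNAs with at least 250 counts in every library all had fold changes below 0, so the values above 0 came from the thinly counted tRNAs.

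**Figure D4:**
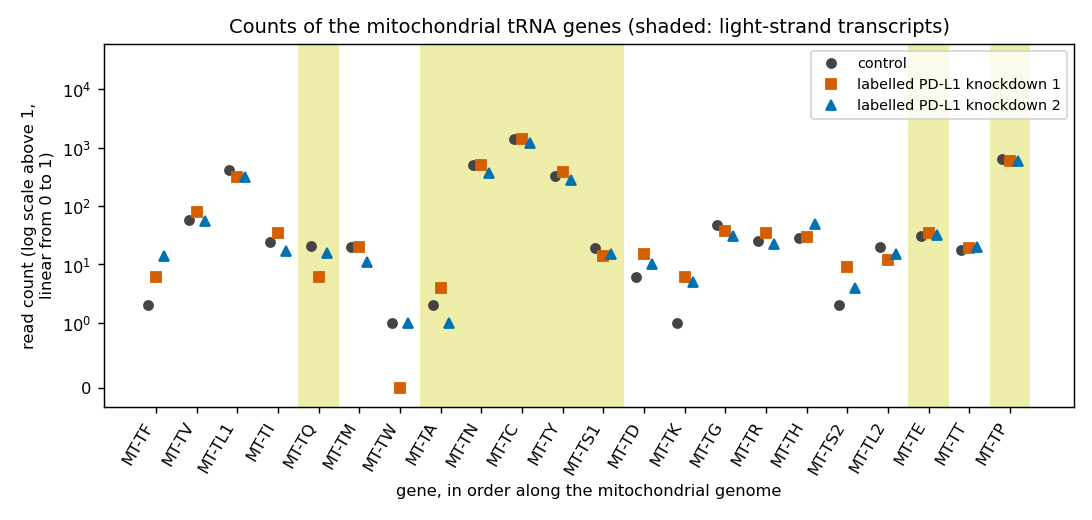
Read counts (vertical axis, logarithmic above 1 and linear from 0 to 1) of the 22 mitochondrial tRNA genes in their order along the genome (horizontal axis), with 1 point per library and shading for light-strand transcripts. MT-TC, MT-TP, MT-TN, MT-TY and MT-TL1 have over 250 counts in each library and the other 17 at most 78.

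Copies of mitochondrial sequence inserted in the nuclear genome can take reads from the members or lend reads to them. Each member was cut into its distinct words of 31 bases, and those also found in an annotated nuclear transcript were counted. They made up 66.7% of the words of MT-CO1, 62.8% of MT-ATP6, 56.9% of MT-ND2 and 50.5% of MT-CO2. They made up only 4.95% of the words of MT-CYB, 3.48% of MT-ND3 and none of MT-RNR1. The other mRNAs and MT-RNR2 lay between MT-CYB and MT-CO2. The tRNAs shared no such word with an annotated nuclear transcript, but nuclear copies that lie outside annotated transcripts were not searched. Of 407 listed nuclear copies, 70 had a count and 3 had at least 100 over the libraries. All together they had 8384 counts in the control, against 8826 in the library labelled knockdown 1 and 8439 in the library labelled knockdown 2, which was 0.903%, 1.05% and 1.03% of the member counts.

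The copy MTATP6P1 lies on chr1:633696-634376 and differs from MT-ATP6 at 10 bases, with 98.5% identity. The window of 30 bases below, from chrM:8648-8677 and chr1:633817-633846 on the plus strand of each, holds 2 of the differing bases, in capitals, and shows how few positions tell the genes apart.
MT-ATP6: gactaatCaccacccaacaatgactaatcA
MTATP6P1: gactaatTaccacccaacaatgactaatcC
MTATP6P1 had 3576 counts in the control, against 4089 in the library labelled knockdown 1 and 4352 in the library labelled knockdown 2. Its ratios of 1.14 (1.09 to 1.20) and 1.14 (1.09 to 1.19) lay on the other side of 1 from those of MT-ATP6 (log2 fold change 0.19, SE 0.12, adjusted p = 0.523). MTCO1P12 had 362, 478 and 487 counts (0.37, SE 0.17, adjusted p = 0.367). MTND2P28, in contrast, had 4331, 4087 and 3454 counts (-0.24, SE 0.11, adjusted p = 0.376) and was lower in both libraries, as was MT-ND2. How the mapping divided reads between the members and these copies was not tested, so counts of both are uncertain in the shared stretches.

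Nuclear genes that copy, process and translate the mitochondrial genome were looked up as a list of 60, all of which were tested. By edgeR 0 of them passed an adjusted p of 0.05. At an unadjusted p under 0.05, 4 were higher and 1 was lower, shares of 60 to be read beside 6.82% and 4.92% of all genes by edgeR. DESeq2 had 0 of the list at that level, without a share of all genes beside it. The median log2 fold change was -0.04, with 26 genes lower and 25 higher than the control in both libraries.

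In the transcription group POLRMT, the mitochondrial RNA polymerase, had 1561 counts in the control, against 1817 in the library labelled knockdown 1 and 2060 in the library labelled knockdown 2 (log2 fold change 0.26, SE 0.12, adjusted p = 0.376). TFAM, which packs the mitochondrial genome and starts its transcription, had 1118, 1045 and 944 counts (-0.21, SE 0.13, adjusted p = 0.549). The polymerase was thus higher and TFAM lower in both, and neither passed the test. TFB2M, the initiation factor that opens the promoter, had 404, 480 and 444 counts, and TEFM, the elongation factor, 126, 144 and 139. For replication, POLG, the DNA polymerase of the organelle, had 1531, 1671 and 1836 counts, and TWNK, its helicase, 666, 691 and 784.

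Among the genes that cut the precursor, ELAC2, which cleaves after each tRNA, had 2657 counts in the control, against 2873 in the library labelled knockdown 1 and 2983 in the library labelled knockdown 2. Its partner at the other end of the tRNA is RNase P, whose nuclease PRORP had 571, 489 and 593 counts. TRMT10C, a further RNase P subunit, had 333, 294 and 229 counts and the lowest log2 fold change of the 60 (-0.39, SE 0.18, adjusted p = 0.374). The highest of the 60 was that of MRPL12, in the transcription group (0.42, SE 0.17, adjusted p = 0.301). The cleavage and modification group as a whole had 10 genes with fold changes above 0 and 6 below, with a median of 0.10.

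In the stability group 3 genes had fold changes above 0 and 11 below, with a median of -0.10. LRPPRC, which binds and stabilizes mitochondrial mRNAs, had 7505 counts in the control, against 7226 in the library labelled knockdown 1 and 7055 in the library labelled knockdown 2 (-0.12, SE 0.11, adjusted p = 0.716). SLIRP, its binding partner, had 517, 563 and 618 counts and was higher in both. MTPAP, the poly(A) polymerase whose tails complete the partial stop codons described above, had 553, 494 and 472 counts, and PNPT1, a subunit of the RNA-degrading complex of the organelle, 1456, 1402 and 1301. Translation factors had 4 genes above 0 and 8 below, with a median of -0.09, beside 0.00 for all tested genes.

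**Figure D5:**
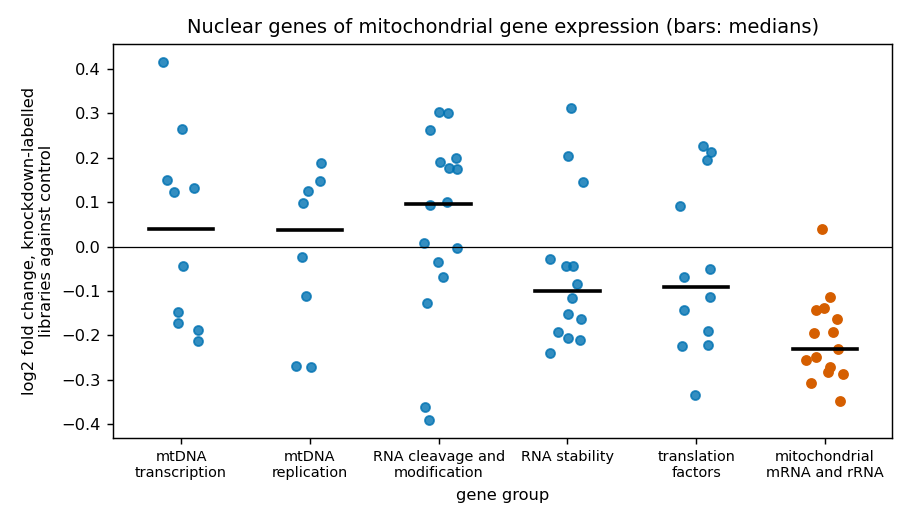
Log2 fold change from the control to the libraries labelled PD-L1 knockdown (vertical axis) for the 60 nuclear genes in 5 groups by role, with the 15 mitochondrial mRNAs and rRNAs at the right (horizontal axis: gene group), 1 point per gene and a bar at each median. The nuclear groups have medians from -0.10 to 0.10 and genes on both sides of 0, while 14 of the 15 mitochondrial genes lie below 0.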

How the data were processed

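RNA-seq libraries of DU145 cells, 1 control and 2 labelled PD-L1 knockdown, were sequenced by the authors, who deposited read counts and FPKM per gene. Submitters' processing notes name Bowtie2 2.0.6, TopHat2 2.0.9, Cufflinks 2.1.1 and Cuffdiff 2.1.1, and the gene positions of all 37 members matched GENCODE v29 (GRCh38); mRNA was enriched with oligo(dT) beads by the study's methods, and the counter and its treatment of strand and of multiply mapped reads are not given in the sources used here. Deposited FPKM equalled count per length over a constant within 0.1% for 100% of genes. Total counts ran from 14733088 to 15786457.

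Counts were tested with edgeR 4.0.16 (R 4.3.3; TMM, quasi-likelihood test, at least 10 counts over the libraries, Benjamini-Hochberg adjustment over all tested genes). The 2 libraries labelled as knockdowns were compared with the control. A log2 fold change is that of the fit over both; an SE is its standard error. CPM ratios carry exact 95% conditional binomial intervals (scipy 1.17.1) and odds ratios normal 95% intervals on the log scale; both cover counting error of single libraries, and PCR reads are not independent molecules. The fit was tested on simulated data in which the smallest planted change was 2-fold. That is larger than the change of any mRNA or rRNA here, so detection of changes of their size was not tested. Alternatives were DESeq2 1.42.0, other scalings and count minimums, removal of GC and length trends, and leaving out a library.

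All mRNAs and rRNAs were named, tRNAs and nuclear copies from 100 counts over the libraries, and of the nuclear list those passing adjustment plus 13 core factors. MRPL12 was named after its values were seen. Members and lists were chosen with earlier results of these data known. Some marker genes that were looked up are not reported here.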

Additional observations from a re-analysis of the deposited data

How the results depend on the processing

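No member and none of the 60 nuclear genes passed an adjusted p of 0.05 with edgeR or under any of the 7 alternative fits (DESeq2's size factors, library totals, totals of nuclear genes, minimums of 1 and 30 counts, DESeq2's Wald test, GC and length trends removed). At an unadjusted p under 0.05 between 5 (DESeq2) and 12 members (GC and length trends removed) were lower and 0 higher. The share of all genes at that level is given only for the main edgeR fit, so these numbers have no background beside them. The lowest adjusted p of the 15 mRNAs and rRNAs was 0.0919. Their median log2 fold change, -0.23, was -0.17 with GC and length trends removed, -0.16 without the library labelled knockdown 2 and -0.28 without the library labelled knockdown 1. With GC and length trends removed 4 of the 15 genes (MT-ATP8, MT-ND3, MT-ND5 and MT-RNR2) moved by more than the SD between the libraries labelled as knockdowns, MT-RNR2 was at 0.03 and 13 of the 15 were below 0. In the other 6 fits only MT-ATP8 under library totals did so, its SD being near 0. MT-ND3 was at 0.09 without the library labelled knockdown 2 and at -0.01 without the library labelled knockdown 1. The mean ratio of the share of counts, 0.861, was 0.852 to 0.867 under other totals (mRNAs alone, protein-coding totals, nuclear copies added, FPKM), and 0.820 and 0.902 with either library left out.

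Over all genes, 70 passed an adjusted p of 0.05 (49 higher, 21 lower). With a minimum of 1 count 51 of 29600 tested genes did (34 higher, 17 lower). With at least 30 counts 16 of 16092 did (12 higher, 4 lower). DESeq2's Wald test called 6 (3 higher, 3 lower), and removal of GC and length trends left 4 (1 higher, 3 lower). The cause of these differences in number was not tested. With a library left out no residual degree of freedom remained, so only values are given. No paired analysis was possible because the control is a single library and the groups share fewer than 2 replicate numbers. The single control and the low counts of 17 tRNAs limit what these data can separate.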
